A study of Mus musculus with 12 samples.

Results

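Alternative transcript starts were followed in 1937 genes of mouse splenic CD4 T cells, chosen from 14476 genes with at least 1 listed start. A gene was taken when its starts summed to 5 FPKM (a level scaled by transcript length and library size) or more in all 12 libraries and 2 or more of its starts each reached 1 FPKM in 3 or more libraries. The rule used levels and no difference between groups, but a start could pass through 1 group alone. Counts of starts that reached 1 FPKM in both groups compared, in 1 or more libraries of each, are therefore given beside the changes. Together the 1937 genes had 9234 listed starts, of which 5118 reached the minimum and were tested. The lowest libraries of Memo1, Rassf2 and Prim1 lay just inside the gene minimum at 5.01, 5.02 and 5.03 FPKM. Those of Slc25a53 and Champ1 lay just outside, both at 4.98 FPKM.

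The cells came in 4 groups of 3 libraries, namely KI naive, KI activated, KIKO naive and KIKO activated. Activated cells had been exposed for 16 h to CD3 and CD28 antibody beads, and naive cells had not. The labels name the genotypes as KI and KIKO with no alleles, and the series title speaks of proteasome dysfunction. In the KIKO activated group the sample titles give T cells with no mention of CD4. No label says that the 3 libraries of a group came from separate animals, so p-values measure only the spread between these samples, which may be technical.

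A gene with several promoters can begin its RNA at different first exons. Where the start codon lies downstream of both, the protein stays the same and only the 5′ leader and the control of the gene differ, and where it does not, the proteins differ at their amino termini. T cells offer a textbook case in Nfatc1, whose inducible upstream promoter is used after T cell receptor stimulation and whose downstream promoter is used in resting cells. A start was expressed here as its share, the FPKM of the start divided by the summed FPKM of all starts at its locus. Starts were told apart by both ends of their first exon, so different starts can share a 5′ end.

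Promoter sequences are shown for 4 genes with a change in start share in which both starts lay at a promoter listed by RefSeq. They were chosen after their values were seen. Each line gives the 150 bases before the promoter's start, read 5′ to 3′ on the strand of the gene, from RefSeq promoters on GRCm38.p6, and capitals mark CpG dinucleotides. The downstream Ccnd3 window ends 31 bases before its start and the upstream Prkacb window 44 bases before its start, so that no printed base lies in an exon. The Ccnd3 windows are chr17:47504901-47505050 and chr17:47593286-47593435, both on the plus strand.
Ccnd3 upstream start: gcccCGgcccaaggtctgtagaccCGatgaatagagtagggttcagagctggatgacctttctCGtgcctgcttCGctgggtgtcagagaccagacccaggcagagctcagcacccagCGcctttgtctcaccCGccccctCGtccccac
Ccnd3 downstream start: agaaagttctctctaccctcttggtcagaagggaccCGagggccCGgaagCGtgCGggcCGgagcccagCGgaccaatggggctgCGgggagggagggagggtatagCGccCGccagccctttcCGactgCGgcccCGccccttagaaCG

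The Arhgef3 windows are chr14:27237860-27238009 and chr14:27335887-27336036, both on the plus strand.
Arhgef3 upstream start: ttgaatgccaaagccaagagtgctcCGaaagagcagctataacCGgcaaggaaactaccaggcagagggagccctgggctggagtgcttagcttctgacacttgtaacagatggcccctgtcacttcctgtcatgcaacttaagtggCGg
Arhgef3 downstream start: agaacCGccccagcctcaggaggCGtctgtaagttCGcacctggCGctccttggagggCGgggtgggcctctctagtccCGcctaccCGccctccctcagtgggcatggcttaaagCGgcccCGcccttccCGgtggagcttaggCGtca

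The Adk windows are chr14:21052424-21052573 and chr14:21076002-21076151, both on the plus strand.
Adk upstream start: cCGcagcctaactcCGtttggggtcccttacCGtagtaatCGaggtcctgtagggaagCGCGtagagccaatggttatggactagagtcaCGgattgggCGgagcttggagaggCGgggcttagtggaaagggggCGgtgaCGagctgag
Adk downstream start: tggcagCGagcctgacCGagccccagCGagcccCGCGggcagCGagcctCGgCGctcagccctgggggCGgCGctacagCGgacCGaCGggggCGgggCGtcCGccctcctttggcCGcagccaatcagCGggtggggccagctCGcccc

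The Prkacb windows are chr3:146812991-146813140 and chr3:146781417-146781566, both on the minus strand.
Prkacb upstream start: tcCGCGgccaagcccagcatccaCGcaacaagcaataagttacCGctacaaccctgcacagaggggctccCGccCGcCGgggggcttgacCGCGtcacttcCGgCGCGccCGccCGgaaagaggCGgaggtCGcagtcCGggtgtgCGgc
Prkacb downstream start: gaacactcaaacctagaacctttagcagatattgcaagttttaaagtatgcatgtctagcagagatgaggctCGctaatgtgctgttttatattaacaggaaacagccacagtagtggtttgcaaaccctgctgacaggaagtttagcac

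The paired promoters differed in CpG content in both directions. In the 250 bases before the start, the upstream and downstream promoters held 11 and 19 CpG in Ccnd3, 4 and 15 in Arhgef3, 15 and 24 in Adk, and 30 and 1 in Prkacb. The downstream Prkacb promoter also held the TATA box letters TATAAA, on either strand, within those 250 bases, and none of the other 7 promoters shown did.

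Most genes had few starts, and 1 of them led. There were 2 tested starts in 1169 genes, 3 in 486 and 4 in 174, with up to 15. Over all libraries the leading start held a median of 86.5% of its gene's start FPKM (quartiles 69.8% and 93.9%), and the second start held 9.57%. The same start led in all 12 libraries in 1448 genes (74.8%). The second start held 20% or more in 536 genes (27.7%).

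Matched by exon boundaries to GENCODE M21, 4590 of the 5118 starts (89.7%) were an annotated first exon. A coding transcript began at 3416 starts (66.7%), and 1174 (22.9%) began noncoding transcripts alone, 714 of them retained-intron transcripts. At 1324 loci (68.4%) every tested start belonged to 1 gene, but 271 loci (14.0%) joined starts of 2 or more neighbouring genes, where a change in share is a change between genes. Such loci are named by both genes below. In the 1324 loci of 1 gene the leading start was the most upstream in 980 (74.0%), and the 2 leading starts lay a median of 1209 bases apart. First exons of 1845 starts overlapped another start of the same gene, and how reads were divided between overlapping exons was not tested.

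The promoters of the tested starts were CpG rich. Of the starts, 1938 lay within 50 bases of a RefSeq promoter of the same gene, at 1666 distinct promoters. These held a median of 17 CpG in 250 bases, against 6 over all 32851 promoters of the table. Searched on both strands, the letters GGGCGG stood in 62.2% of the 1666 and in 32.7% of all promoters, CCGGAAG in 18.7% and 6.91%, and CACGTG in 9.66% and 6.02%. TATAAA was less frequent, in 4.92% against 12.4%, as was TGANTCA, in 3.06% against 6.75%. The 1666 belong to genes with 5 FPKM or more in all 12 libraries, while the 32851 were not filtered by level. Expressed genes with a single start were not compared, so the part of the level filter in these differences was not tested.

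The libraries differed in ways that touch these shares. KIKO naive 2 listed 16579 starts against 18901 to 20854 in the others, and 633 tested starts were at 0 in it against 302 to 397. Summed over 5 myeloid markers, the FPKM reached 202 in KIKO naive and 162 in KIKO activated libraries, highest in KIKO naive 2 and KIKO activated 2, and stayed at or below 0.949 in KI libraries. KIKO naive 2 had S100a8 at 66.0, S100a9 at 110 and Lyz2 at 26.1 FPKM. The B cell list summed to at most 2.77, the erythroid list to at most 1.52 and the cytotoxic list to 6.51 to 24.1 FPKM, while the CD4 T cell list summed to 579 to 1366. Cd4 was not listed in any KI library, and Lck and Trbc1 in none of the 12, and a gene that is not listed need not be silent. The part of these differences in the results was not tested beyond leaving out libraries. The median SD of a share among 3 replicates was 3.29 percentage points in KI naive, 2.71 in KI activated, 4.26 in KIKO naive and 3.28 in KIKO activated cells.

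Activation of KI cells changed start use most widely. Of the 5118 starts, 512 (10.0%) were called, 275 with a higher and 237 with a lower share, at an adjusted p under 0.05 in limma on arcsine-square-root shares. Over all 6485 starts in the fit, 9.07% were called. A shift, meaning a called start whose mean share differed by 10 percentage points or more, was found in 227 genes, 11.7% of the 1937, where 10.8% of all 2544 genes in the fit had one. Of the 370 starts with a shift, 331 reached 1 FPKM in 1 or more libraries of each KI group. The leading start changed in 92 of the 227 genes, and in 57 of them it differed between every naive and every activated library.

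**Figure D1:**
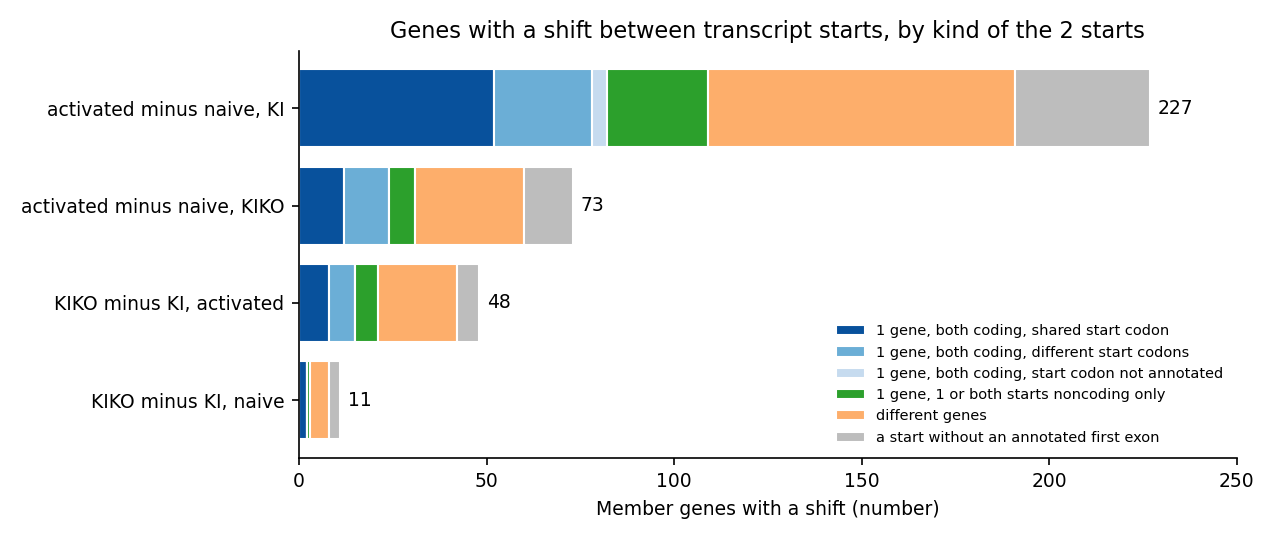
Number of genes with a shift in start share (horizontal axis, genes) in each of 4 comparisons (vertical axis), stacked by what the starts are: different genes of 1 locus, a start with no annotated first exon, or starts of 1 gene with noncoding or coding transcripts. The bars reach 11 genes for naive and 48 for activated KIKO against KI, and 227 and 73 for activation of KI and KIKO cells.

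Starts of 1 gene made up 109 of these 227 genes. In 52 of them both starts were coding and shared a start codon, in 26 both were coding with different start codons, in 4 the start codon was not annotated, and in 27 a start was noncoding. Another 82 loci exchanged share between neighbouring genes and 36 involved a start with no annotated first exon. Within the 109, the start that gained most lay upstream of the one that lost most in 63 and downstream in 46. Where a coding and a noncoding start exchanged share, the coding start gained in 21 genes and the noncoding start in 5. The mean FPKM of the gaining start was higher and that of the losing start lower in 164 of the 227 genes, both means were higher in 32 and both were lower in 31. These FPKM patterns compare group means and were not tested start by start.

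Of 39 listed T cell factors 10 were among the 1937 genes, and 5 had a shift on KI activation, Nfatc1, Lef1, Zbtb7b, Ikzf1 and Tcf7. Of all genes in the fit, 10.8% had a shift on KI activation. The other members, Bach2, Batf, Bcl11b, Elf1 and Satb1, had none, with mean differences of their leading start in naive cells between -7.04 and 18.0 percentage points. On KIKO activation 2 of the 10 had a shift, Nfatc1 and Satb1. The list was put together with earlier results of these data known.

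Nfatc1 (chr18, minus strand), a factor that moves to the nucleus on calcium signalling, has an upstream start at 80755855-80755981 and a downstream start at 80751249-80751388 on GRCm39, the build of the start coordinates throughout, with 4593 bases between them. The upstream share was 3.89%, 7.88% and 0% in KI naive 1, 2 and 3, and 63.0%, 61.5% and 55.0% in KI activated 1, 2 and 3. It was 3.20%, 0% and 0.346% in the KIKO naive libraries and 68.7%, 72.2% and 40.3% in the KIKO activated libraries. Every activated library lay above every naive library in both genotypes, and KIKO activated 3 was the lowest of the activated ones. The means were 3.93% ± 3.94 (SD, n = 3) and 59.9% ± 4.25 in KI cells, a difference of 55.9 percentage points (limma, adjusted p = 0.00131), and 1.18% ± 1.76 and 60.4% ± 17.5 in KIKO cells, a difference of 59.2 (adjusted p = 0.00217). Both calls held under all 23 alternatives, with adjusted p from 0.000537 to 0.0086 in KI and from 0.000849 to 0.038 in KIKO cells. Upstream FPKM went from 0 to 2.74 in KI naive up to 25.2 to 35.6 in KI activated libraries, while downstream FPKM went from 32.1 to 32.8 down to 20.3 to 21.6.

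Lef1 (chr3, plus strand), which acts with Tcf7 in naive T cells, gained at a start 3609 bases inside its first one, at 130905809-130906469. That share was 12.9%, 8.99% and 19.0% in KI naive, 50.4%, 69.2% and 61.9% in KI activated, 7.28%, 10.1% and 13.8% in KIKO naive and 26.6%, 40.4% and 18.3% in KIKO activated libraries. The groups did not overlap in either genotype, and the KI activated libraries lay above the KIKO activated ones. The KI difference was 46.9 points (limma, adjusted p = 0.00126, from 0.000726 to 0.00742 over the alternatives). The KIKO difference was 18.0 points and was not called. A Lef1 start within an internal exon, at 130949543-130950224, fell by 30.6 points in KI cells (adjusted p = 0.000901), from a mean of 34.0% to 3.37%. The gene itself fell by 1.35 on the log2(FPKM + 1) scale in KI cells and by 1.32 in KIKO cells.

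Zbtb7b (chr3, minus strand), which encodes ThPOK, the factor that fixes the CD4 lineage, gained at its downstream start, 89294370-89294496. The downstream share was 15.7%, 16.6% and 4.60% in KI naive libraries and 60.1%, 57.3% and 77.0% in KI activated libraries. KIKO libraries stayed low in both states, at 20.3%, 23.0% and 10.4% in naive and 22.5%, 29.0% and 26.9% in activated cells. KI activation changed it by 52.5 points (limma, adjusted p = 0.00128), a call kept under every alternative, and the KIKO difference was 8.27 points (adjusted p = 0.544).

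Ikzf1, encoding Ikaros, gained 23.0 points at a start at 11635003-11635174 in KI cells (limma, adjusted p = 0.000279). Its shares were 1.53%, 0% and 0% in KI naive and 21.4%, 27.8% and 21.4% in KI activated libraries. In KIKO cells they were 4.27%, 7.11% and 4.14%, then 14.5%, 11.1% and 7.26%, a difference of 5.77 points that was not called (adjusted p = 0.245). Another tested Ikzf1 start has the same coordinate, 11635003, and a different end. It gained 4.85 points in KI (limma, adjusted p = 0.0253) and 3.75 in KIKO cells (adjusted p = 0.0396). Those calls were lost in 5 and 12 of 23 alternatives. Tcf7, encoding TCF1, fell by 18.3 points at its downstream start, 52173381-52173427, in KI cells (adjusted p = 0.0143). That call was lost without KI naive 3 and without KI activated 2 or 3, where the adjusted p reached 0.0594.

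Of 46 listed genes of cell cycle, growth and metabolism 9 were followed, and 2 of them had a shift on KI activation, Ccnd3 and, at a locus joined with Haus3, Mxd4. The share over all genes in the fit was 10.8%. Ccnd3 encodes cyclin D3, a G1 cyclin of lymphocytes, and its promoters lie 88625 bases apart on chr17, at 47815736-47816191 and 47904361-47904777, where a coding transcript begins at each. The downstream share was 11.4%, 12.3% and 4.65% in KI naive, 65.2%, 73.5% and 75.0% in KI activated, 25.5%, 34.1% and 24.2% in KIKO naive and 41.1%, 35.1% and 34.0% in KIKO activated libraries. KI activated libraries were the highest and KI naive the lowest, with both KIKO groups between them. The means were 9.47% ± 4.20, 71.2% ± 5.28, 28.0% ± 5.35 and 36.7% ± 3.80 (SD, n = 3). KI activation changed it by 61.8 points (limma, adjusted p = 9.56e-05, from 3.43e-05 to 0.00121 over the alternatives) and the KIKO difference was 8.77 (adjusted p = 0.379). The upstream start went from 47.4 to 56.3 FPKM down to 10.5 to 16.4 FPKM on KI activation, and the downstream start went from 2.74 to 7.26 up to 31.8 to 38.2.

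In KIKO cells the upstream Ccnd3 start also went down, from 33.1 to 39.1 FPKM to 10.9 to 18.7. The downstream start went down with it, from 11.4 to 19.3 to 5.92 to 9.68 FPKM. The gene's summed level differed by -0.31 on the log2(FPKM + 1) scale in KI cells, which was not called (limma, adjusted p = 0.104), and fell by 1.16 in KIKO cells (adjusted p = 0.000146).

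Mcm7 (chr5, minus strand), which is in none of the lists and encodes a subunit of the replicative helicase, gained at its most upstream start, 138169988-138170684. The share was 50.7%, 57.7% and 52.1% in KI naive and 95.5%, 96.9% and 92.1% in KI activated libraries, with no overlap. It was 49.7%, 39.7% and 60.1% in KIKO naive and 72.0%, 51.7% and 60.9% in KIKO activated libraries, which overlapped. KI activation changed it by 41.3 points (limma, adjusted p = 0.000901) and the KIKO difference was 11.7 (adjusted p = 0.383). At the joint locus, Mxd4, a Myc antagonist, fell from a mean share of 65.5% to 28.2% in KI cells, with the rest at a start shared by Haus3, a subunit of the spindle complex augmin, and Poln (adjusted p = 0.000678).

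**Figure D2:**
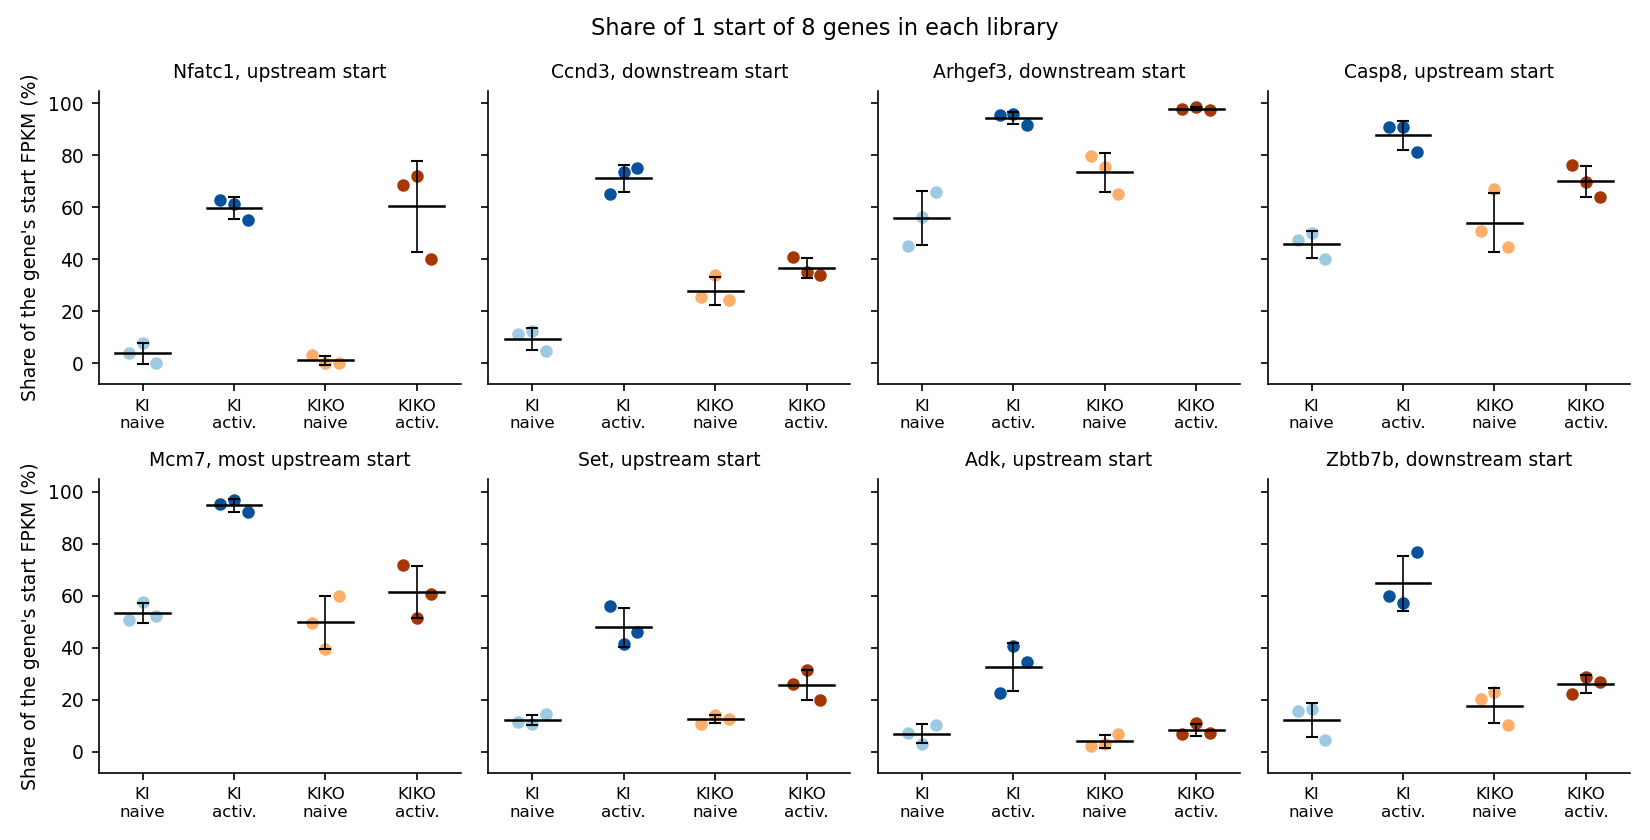
Share of 1 start of its gene (vertical axis, percent) in each library of the 4 groups (horizontal axis) for Nfatc1, Ccnd3, Arhgef3, Casp8, Mcm7, Set, Adk and Zbtb7b. Each point is a library, the line is the mean and the bar the SD of 3 libraries. Nfatc1 and Arhgef3 are higher after activation in both genotypes, and Ccnd3 reaches 71.2% in KI activated and 36.7% in KIKO activated cells.

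Casp8 (chr1, plus strand), the initiator caspase of death receptors, was the only shift on KI activation among the 7 followed genes of the p53 and apoptosis list. Its upstream start, 58834533-58834897, 7128 bases from the other, held 47.3%, 50.1% and 40.1% in KI naive and 90.9%, 91.0% and 81.3% in KI activated libraries. In KIKO cells it held 51.0%, 67.0% and 44.7%, then 76.2%, 69.9% and 64.1%, so that KIKO naive 2 lay within the activated range. The KI difference was 41.9 points (limma, adjusted p = 0.00171) and the KIKO difference 15.9 points (adjusted p = 0.216). On KI activation the upstream start went only from 25.0 to 29.1 FPKM to 28.8 to 36.6, while the downstream start went from 29.0 to 37.2 down to 3.10 to 6.63.

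Arhgef3 (chr14, plus strand), a guanine nucleotide exchange factor, exchanged promoters 97473 bases apart in both genotypes. The downstream start, 27057389-27058226, held 45.3%, 56.4% and 65.9% in KI naive, 95.7%, 96.0% and 91.6% in KI activated, 79.9%, 75.5% and 65.1% in KIKO naive and 97.8%, 98.7% and 97.4% in KIKO activated libraries. All activated libraries lay above all naive ones. The differences were 38.6 points in KI cells (limma, adjusted p = 0.000669) and 24.5 in KIKO cells (adjusted p = 0.00674). The KIKO call was lost only with KIKO naive 2 and KIKO activated 2 both left out (adjusted p = 0.068, with the other alternatives and this one ranging from 0.00192 to 0.068). The gaining promoter is the one with 15 CpG against 4, printed above.

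Sla, encoding a Src-like adaptor that restrains T cell receptor signalling, was the only shift among 9 followed genes of receptor signalling. Its most downstream start, 66673280-66673442 on chr15, rose by 21.9 points in KI (limma, adjusted p = 0.00737) and by 34.0 in KIKO cells (adjusted p = 0.00477), and neither call was lost under any alternative. Its shares were 10.5%, 3.65% and 4.74% in KI naive and 20.9%, 37.6% and 26.0% in KI activated libraries. They were 11.7%, 7.68% and 5.74% in KIKO naive and 45.8%, 35.5% and 46.0% in KIKO activated libraries.

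Set and Adk showed the opposite geometry to Arhgef3, with the upstream start gaining. Set (chr2, plus strand) encodes an inhibitor of protein phosphatase 2A and histone chaperone. Its upstream start, 29951865-29952292, held 11.5%, 10.9% and 14.6% in KI naive, 56.1%, 41.4% and 46.3% in KI activated, 10.9%, 14.1% and 12.8% in KIKO naive and 26.1%, 31.5% and 19.9% in KIKO activated libraries. KI activation changed it by 35.6 points (limma, adjusted p = 0.000358, from 0.000298 to 0.0026 over the alternatives) and the KIKO difference was 13.3 (adjusted p = 0.0612). The downstream start did not lose FPKM in KI cells, with 77.8 to 83.1 in naive and 115 to 224 in activated libraries, while the upstream start went from 9.60 to 14.3 up to 148 to 169.

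Adk encodes adenosine kinase. Its upstream start, 21102642-21102768 on chr14, lies 23562 bases before the downstream one, and in GENCODE coding transcripts with different start codons begin at each. The share was 7.35%, 3.12% and 10.4% in KI naive, 22.5%, 40.6% and 34.7% in KI activated, 2.15%, 3.08% and 6.97% in KIKO naive and 7.09%, 11.0% and 7.17% in KIKO activated libraries. The KI activated libraries stood apart from the other 9. The KI difference was 25.7 points (limma, adjusted p = 0.00533, from 0.00364 to 0.0259 over the alternatives) and the KIKO difference 4.35 points (adjusted p = 0.463).

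Prkacb (chr3, minus strand), a catalytic subunit of protein kinase A, kept its upstream start at an even level. Its downstream start, 146486902-146487171, went from 31.5 to 35.3 FPKM down to 7.35 to 11.1 in KI cells and from 23.2 to 23.9 down to 2.47 to 10.1 in KIKO cells. The upstream start, 146518393-146518790, 31619 bases away, stayed between 8.35 and 11.7 FPKM in all 12 libraries. The upstream share was 21.9%, 27.1% and 24.3% in KI naive and 49.5%, 56.3% and 44.7% in KI activated libraries, a difference of 25.7 points (limma, adjusted p = 0.0464). In KIKO cells it was 27.6%, 29.3% and 30.0%, then 56.7%, 77.7% and 45.3%, a difference of 30.9 points (adjusted p = 0.0456). Both calls were near the threshold. The KI call was lost in 11 of 23 alternatives, among them each library left out except KIKO activated 2 and 3, with adjusted p up to 0.146. The KIKO call was lost in 15, among them each library left out except KIKO activated 3, with adjusted p up to 0.135.

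**Figure D3:**
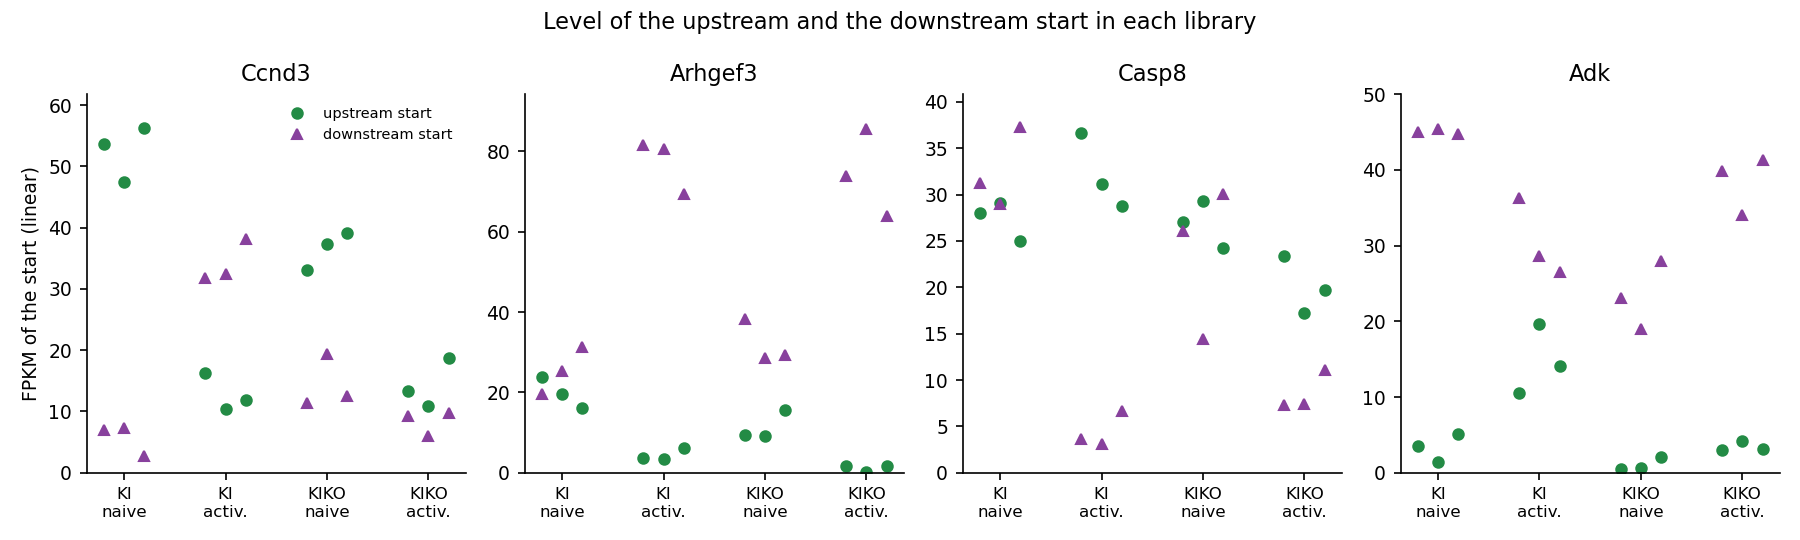
FPKM (vertical axis, linear from 0) of the upstream and the downstream start in each library of the 4 groups (horizontal axis) for Ccnd3, Arhgef3, Casp8 and Adk, 1 point per library and start. In Ccnd3 the downstream start reaches 31.8 to 38.2 FPKM in KI activated and 5.92 to 9.68 FPKM in KIKO activated libraries.

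The largest called change of share in both genotypes was at Elp5 (chr11, minus strand), a subunit of the Elongator complex that modifies transfer RNA. Its upstream start, 69872033-69872112, was not listed in any KI naive library and held 98.0%, 94.6% and 92.7% in KI activated libraries. It held 17.8%, 8.27% and 21.6% in KIKO naive and 98.0%, 97.4% and 96.5% in KIKO activated libraries. The differences were 95.1 points in KI (limma, adjusted p = 1.27e-06) and 81.4 in KIKO cells (adjusted p = 2.76e-05), and neither was lost under any alternative. The gene rose by 2.10 and 1.60 on the log2(FPKM + 1) scale. Hspd1, the mitochondrial chaperonin, gained 81.7 points at 55126938-55127183 in KI cells (adjusted p = 0.00683), but its 2 first exons overlap and begin 219 bases apart, and KIKO naive libraries held 57.1%, 9.20% and 53.9%.

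At loci that join neighbours, a changed share reports the balance of 2 genes. The start of Bcl2a1b, a survival protein of the Bcl2 family, is shared with the annotated gene Gm29094. It held 41.2%, 48.6% and 46.9% of its locus with Mthfs in KI naive and 96.9%, 96.1% and 97.4% in KI activated libraries. In KIKO cells it held 35.3%, 43.9% and 43.6%, then 87.2%, 93.0% and 83.7%. Both changes were called (limma, adjusted p = 7.1e-05 and 0.000579) and none was lost under any alternative. Mthfs itself, a folate enzyme, stayed between 3.24 and 7.19 FPKM in all 12 libraries.

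Among 12 followed genes of the proteasome, ubiquitin and autophagy list no start shifted in any comparison. Of all genes in the fit, 10.8% had a shift on KI activation and 0.275% to 3.81% in the other comparisons. With 12 genes, the absence of a shift is near that share. The only called start was that of Psmb6, a catalytic subunit of the proteasome, by 1.90 points in KI cells (limma, adjusted p = 0.0422), a call lost in 14 of 23 alternatives with adjusted p up to 0.149. Its leading start held a mean of 97.1%, 99.0%, 96.9% and 98.1% in KI naive, KI activated, KIKO naive and KIKO activated cells. The leading starts of Ubb and Psma1 held 98.9% or more in all 4 groups, and those of Keap1 and Uba1 were more divided, with 40.6% to 54.4% and 62.3% to 77.2%. Of 15 followed RNA processing genes, Srsf1 had a shift in KI cells, 16.2 points (adjusted p = 0.0267), and Hnrnpdl in KIKO cells, 10.2 points (adjusted p = 0.0143). The Srsf1 call was lost in 5 alternatives, without KI naive 1 or 3 or any 1 KI activated library (adjusted p up to 0.0897), and the Hnrnpdl call in 2, without KIKO activated 1 and with both KIKO libraries left out (adjusted p up to 0.104).

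Activation of KIKO cells gave fewer calls. Of the 5118 starts 157 (3.07%) were called, 89 higher and 68 lower, where 2.88% of all starts in the fit were called. Shifts were found in 73 genes, 3.77%, where 3.81% of all genes in the fit had one, and 101 of the 107 starts with a shift reached 1 FPKM in both KIKO groups. The leading start changed in 31 genes, in 13 of them between every library of the groups. At an unadjusted p under 0.05 the counts were 936 starts in KIKO and 1223 in KI cells. With KIKO naive 2 and KIKO activated 2 both left out, the libraries with the most myeloid marker RNA, 25 genes had a shift and 12 a change of leading start, with 2 libraries left in each KIKO group. Leaving out each library in turn gave 32 to 89 genes. There were 53 without KIKO naive 1 or 2 alone, 32 without KIKO activated 1 and 33 without KIKO activated 2.

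Both genotypes moved mostly in the same direction. KI and KIKO activation share no library, although they share the fitted estimate of the spread. Of the 227 genes with a shift in KI cells, the start of largest change moved the same way in KIKO cells in 204 (89.9%) and the opposite way in 23, and 129 moved by 10 points or more the same way. The median change was 25.4 points in KI and 11.8 in KIKO cells, and it was smaller in KIKO cells in 213 of 227. Choosing the genes in KI cells favours a larger KI value, so the reverse choice is given too. Of the 73 genes with a shift in KIKO cells, 65 (89.0%) moved the same way in KI cells, with medians of 24.7 points in KIKO and 19.0 in KI cells, and the change was smaller in KI cells in 43. The difference between the counts of 227 and 73 was not itself tested, and KIKO naive replicates varied more.

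**Figure D4:**
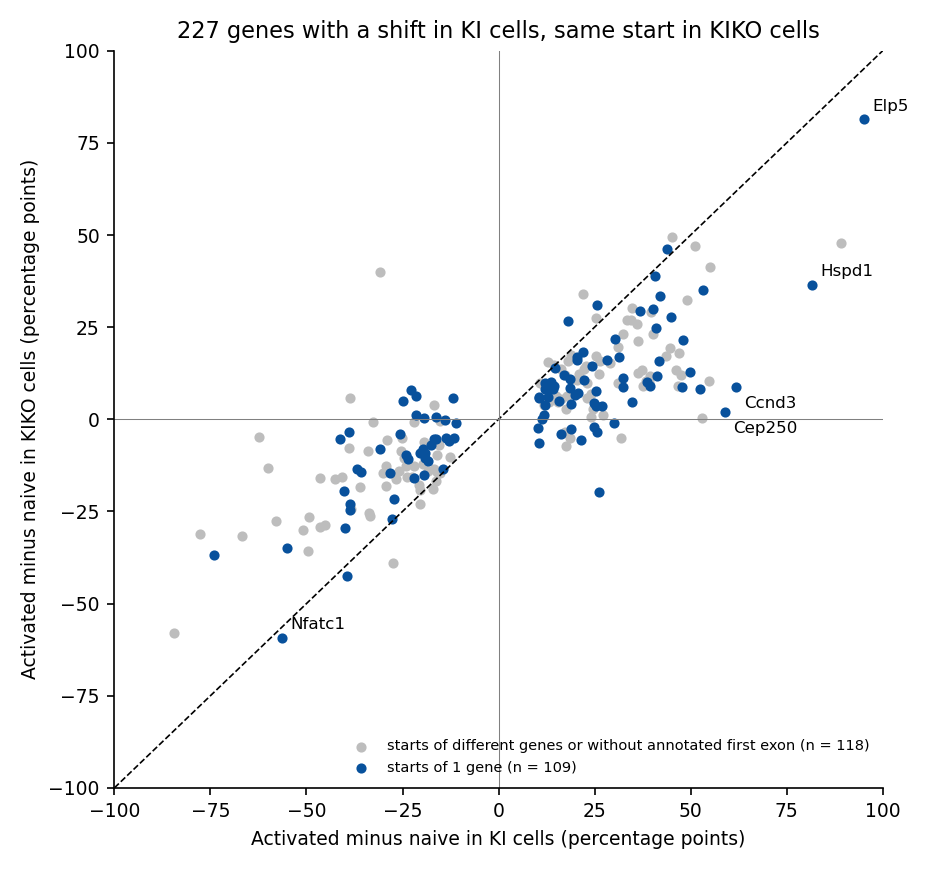
Change in share on activation in KI cells (horizontal axis, percentage points) against the change in KIKO cells (vertical axis, percentage points) for the start of largest change in each of the 227 genes with a shift in KI cells, starts of 1 gene in blue (109) and others in grey (118). The dashed line marks equal change, and Elp5 and Nfatc1 lie near it while Ccnd3 and Cep250 lie toward no change in KIKO cells.

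Tests of the difference between the responses called 10 starts, 0.195% of the 5118, where 0.154% of all starts in the fit were called. A difference of 10 points or more stood in 7 genes, 0.361%, where 0.275% of all genes in the fit had one. Ccnd3 was among them, with a response of the downstream start 53.0 points smaller in KIKO than in KI cells (limma, adjusted p = 0.0280). The call was lost in 9 of 23 alternatives, among them the replicate block and leaving out KI activated 1, 2 or 3, KIKO naive 1 or 2, or KIKO activated 3, with adjusted p from 0.00391 to 0.0767. None of the 6 starts of the difference followed through the alternatives kept its call in all of them. At an unadjusted p under 0.05 there were 473 starts.

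Activated KIKO cells differed from activated KI cells in 48 genes. Of the 5118 starts 87 (1.70%) were called, 35 higher and 52 lower in KIKO, where 1.65% of all starts in the fit were called, and 2.48% of genes had a shift where 2.4% of all genes in the fit did. Of the 65 starts with a shift 58 reached 1 FPKM in both groups, and the leading start differed in 22 genes. With KIKO naive 2 and KIKO activated 2 both left out, 30 genes had a shift and 12 a different leading start. This comparison shares the KI activated libraries with KI activation, so their values for a gene are given side by side and are not independent.

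Starts of 1 gene made up 21 of the 48, and different genes of 1 locus another 21. The downstream Ccnd3 start was 34.5 points lower in activated KIKO cells than in activated KI cells (limma, adjusted p = 0.00814), whose adjusted p reached 0.05 with the log2 ratio and 0.5 FPKM added. The most upstream Mcm7 start was 33.3 points lower (adjusted p = 0.00949, from 0.00396 to 0.043 over the alternatives). The second Lef1 start was 32.1 points lower (adjusted p = 0.0346), the downstream Zbtb7b start 38.7 (adjusted p = 0.0291), the upstream Set start 22.1 (adjusted p = 0.0232) and the upstream Adk start 24.2 (adjusted p = 0.029). These 4 calls were each lost in 7 to 9 of 23 alternatives, among them the replicate block and leaving out KIKO activated 1 or 3, with adjusted p up to 0.13, 0.104, 0.0894 and 0.106 in the same order.

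Further starts kept their call in every alternative. At the centrosomal linker gene Cep250 a start of a retained-intron transcript, 155821478-155821766 on chr2, held 64.7%, 54.6% and 69.2% in KI activated libraries. It held 3.13%, 7.72% and 0.996% in KIKO activated libraries and at most 5.41% in the naive libraries of both genotypes, so the KI activated libraries stood apart. The difference was -58.9 points (limma, adjusted p = 0.00112). At Abr, a regulator of small GTPases, the annotated start held 100%, 100% and 98.9% in KI activated and 48.2%, 62.6% and 73.3% in KIKO activated libraries (adjusted p = 0.00183). A start with no annotated exon, 15373 bases downstream, held a mean of 36.1% ± 15.1 (SD, n = 3) in KIKO activated cells and was not listed in any KI library. The call of that start (limma, adjusted p = 0.0101) was lost in 2 of 22 alternatives, both with the log2 ratio, with adjusted p up to 0.0809.

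The joint locus of Tpi1, a glycolytic enzyme, and Usp5, which takes apart free ubiquitin chains, also changed. Tpi1 held 81.5%, 77.1% and 84.6% in KI activated and 35.3%, 23.4% and 20.3% in KIKO activated libraries, with 14.3% to 29.7% in the naive libraries of both genotypes. The difference was -54.7 points (limma, adjusted p = 0.00064) and was called in every alternative. In FPKM, Tpi1 stood at 109 to 180 in KI activated and 10.0 to 25.7 in KIKO activated libraries, and Usp5 at 26.7 to 30.7 and 37.9 to 48.8.

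Naive cells of the genotypes differed least. There were 23 called starts (0.449%), 10 higher and 13 lower in KIKO, where 0.463% of all starts in the fit were called, and shifts in 11 genes, 0.568% where 0.668% of all genes in the fit had one. Of the 16 starts with a shift 11 reached 1 FPKM in both naive groups, and 1 gene had a different leading start. At an unadjusted p under 0.05 there were 537 starts. Leaving out each library in turn left 0 to 12 genes with a shift, among them 1 without KIKO naive 2 and 0 without KIKO naive 1 or 3. Leaving out KIKO naive 2 and KIKO activated 2 together left 0, with 0 starts called by limma and 488 at an unadjusted p under 0.05.

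The largest naive shifts by size were -50.0 points at Fhl3, -43.5 at Glb1, -33.7 for Sirt7 at its joint locus with Mafg, and -28.9 for Coro7 at its joint locus with Pam16. At Fhl3, a LIM domain protein, the start at 124591287-124594644 on chr4 held 100%, 100% and 94.2% in KI naive and 47.8%, 52.4% and 44.1% in KIKO naive libraries, without overlap (limma, adjusted p = 0.0387, lost in 11 of 22 alternatives with adjusted p up to 0.117). It held 83.4%, 72.1% and 92.9% in KI activated and 29.2%, 26.9% and 44.8% in KIKO activated libraries (adjusted p = 0.0169, lost in 6 with adjusted p up to 0.0701). Sirt7, a deacetylase, fell from a mean of 71.7% in KI naive to 38.0% in KIKO naive cells (adjusted p = 0.0387, lost in 15 of 23 alternatives with adjusted p up to 0.121). None of the 10 naive starts followed through the alternatives kept its call in all of them.

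Gene levels were tested apart from start shares. On the log2(FPKM + 1) scale limma called 1323 of the 1937 genes (68.3%) on KI activation and 1001 (51.7%) on KIKO activation. Between genotypes it called 860 (44.4%) in activated and 223 (11.5%) in naive cells. Percentages of called levels over all genes in the fit are not given. Of the genes with a shift in the same comparisons, 171 of 227 (75.3%), 41 of 73 (56.2%), 28 of 48 (58.3%) and 2 of 11 (18.2%) had a called level. Each percentage was higher than that of the 1937 genes, and these differences were not tested. Nfatc1 rose by 0.62 and 0.66 in KI and KIKO cells, and Adk differed by -0.10 in KI cells, which was not called (adjusted p = 0.545), while its start shares changed.

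Sequence features of gaining and losing promoters were counted where RefSeq lists a promoter. Among starts of 1 gene that gained share on KI activation 71 had a RefSeq promoter, with a median of 19 CpG in 250 bases, and 53 that lost share had a median of 18. In 27 genes both starts had a promoter of their own, and the gaining one held more CpG in 13 and the losing one in 14. The split was 4 and 4 in 8 genes of KIKO activation and 3 and 3 in 6 genes of the activated genotypes. TATAAA stood in 4 of the 71 gaining and 5 of the 53 losing promoters of KI activation, CACGTG in 2 and 4, TGANTCA in 4 and 2, CCGGAAG in 16 and 9, and GGGCGG in 48 and 40. On KIKO activation TATAAA stood in 0 of 19 gaining and 2 of 15 losing promoters. These counts describe the letters in these windows and were not tested.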

How the data were processed

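Poly(A) RNA was taken from 15 ng of total RNA per library and sequenced after a stranded TaKaRa SMART-seq preparation, per the labels' protocols. FastQC 0.11.9, cutadapt 2.9 and HISAT2 2.2.0 are named in the submitters' processing notes, with the builds GRCm39 and mm10. The sources used here do not name the program behind the events and FPKM. FPKM, as deposited by the authors, are given per transcript event in 1 file per library. They carry no read numbers, so depth and its sampling error are unknown. Duplicate events were dropped, transcript starts kept, and an absent start was taken as 0.

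Shares were computed as described and tested on the arcsine-square-root scale with limma 3.58.1 in R 4.3.3. The fit held 4 group means of 3 libraries, a trend of the prior variance on log2 mean gene FPKM (mean prior degrees of freedom 2.50), and Benjamini-Hochberg adjustment over all 6485 starts of the 2544 genes with 2 or more starts and a defined share in every library. A start was called at an adjusted p under 0.05, and tests were two-sided. Gene levels were tested with limma on log2(summed start FPKM + 1). Tested on simulated data for KI activation, with 200 changed genes, the fit recovered 29.5% of shifts of 20 points and 60.5% of shifts of 40 points. Of the genes called, 7.81% and 5.47% had not been changed. The simulated tables held fewer zeros, with 8557 and 8550 starts in the fit, so the recovery is approximate.

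Starts were matched to GENCODE M21 (GRCm38) by the spacing of exon boundaries, with no conversion of coordinates, and RefSeq promoters (GRCm38.p6) were taken within 50 bases of the matched GRCm38 start. Values at a few loci are not reported here. Genes were named from the 12 with the largest difference per comparison among those with a shift and no overlap. Members of the gene lists were added, as were further genes chosen after their values were seen. The further genes were the 8 plotted genes and the 4 with printed promoters, and those of the largest shifts between coding starts of 1 gene. Not all of the 12 are described above, and several of the largest shifts on KI activation are left out. The genes followed, the lists and the rules were chosen with earlier results of these data known. Alternatives were other transforms and minimums, merged first exons, no variance trend, a block for the replicate number, array weights and each library left out. Merged first exons gave counts only, and calls of single starts were not followed through that alternative. Leaving out KIKO naive 2 and KIKO activated 2 together, and counting starts that reached 1 FPKM in both groups, were added after the data were seen. Summaries used Python 3.11.15 with pandas 2.3.3 and numpy 2.4.6, and plots matplotlib 3.10.9.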

Additional observations from a re-analysis of the deposited data

Results flagged for a closer look

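The responses of KI and KIKO cells to activation differed by limma's test of the difference at 10 starts. Each value given here is the KIKO response minus the KI response in percentage points. The largest was 70.7 points (limma, adjusted p = 0.0280), at the upstream start of Glb1, which encodes lysosomal beta-galactosidase. That start is shared with Tmppe. Its mean shares were 97.5%, 66.7%, 54.0% and 93.9% in KI naive, KI activated, KIKO naive and KIKO activated cells. The retained-intron start of Cep250 differed by -57.0 points (limma, adjusted p = 0.0280). The Ccnd3 starts differed by -53.0 points downstream and 52.3 upstream (both with a limma adjusted p = 0.0280).

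At the joint locus of Tpi1 and Usp5 the differences were -44.2 points for Tpi1 (limma, adjusted p = 0.0355) and 45.4 for Usp5 (limma, adjusted p = 0.0280). A start of the ribosomal protein gene Rpl38 differed by 17.6 points (limma, adjusted p = 0.0456), with means of 82.8%, 70.9%, 70.0% and 75.8% in the same order. The Ccnb2 start at the locus with Rnf111 differed by -14.2 points (limma, adjusted p = 0.0280), with means of 0%, 5.70%, 8.89% and 0.343%. A minor start of Arhgdib differed by 1.61 points (limma, adjusted p = 0.0280) and was listed only in KIKO activated libraries. With the replicate block, or with KIKO naive 2 and KIKO activated 2 both left out, limma called 0 starts of this kind, and 467 and 498 starts stood at an unadjusted p under 0.05.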

How the results depend on the processing

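Counts here are genes with a shift, followed by genes with a changed leading start. KI activation (227, 92) stayed within 1.5 times these counts under each alternative run. The other comparisons moved more. With the log2 ratio and 0.5 FPKM added, the naive genotypes gave 3 and 0, the activated genotypes 22 and 6 and the difference between responses 2 genes. With 1 FPKM added the naive genotypes gave 0 and 0 and the difference 3. Untransformed shares gave 2 naive changes of the leading start and 13 genes in the difference, array weights 2 and 0 for naive, no gene minimum 17 and 4 for naive, and a gene minimum of 10 FPKM 4 for the difference. With KIKO naive 2 and KIKO activated 2 both left out, the counts were 0 and 0 for naive, 30 and 12 for activated, 25 and 12 for KIKO activation and 0 for the difference.

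Leaving out each library in turn gave 0 to 12 and 0 to 2 for naive, 18 to 60 and 8 to 27 for activated, 155 to 258 and 70 to 101 for KI activation, 32 to 89 and 16 to 36 for KIKO activation, and 0 to 7 for the difference. The activated comparison fell to 18 to 28 without KI activated 2 or 3 or any 1 KIKO activated library, and KIKO activation to 32 and 33 without KIKO activated 1 and 2. Without KIKO naive 3 KIKO activation had 20 changes of the leading start.

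No pairing by replicate number was seen in the deviations of shares, which cannot show that same-numbered libraries were unpaired. The correlation of same-numbered libraries' deviations was -0.0676 to 0.0493 (18 pairs) against -0.0541 to 0.0594 for other numbers (36 pairs). With the replicate block the counts were 1 and 0 for naive, 21 and 11 for activated, 197 and 86 for KI activation, 61 and 29 for KIKO activation and 0 for the difference. Of 73 starts followed, none reversed. Merged first exons aside, where single starts were not followed, the call held under every alternative for 17 of 20 starts on KI activation. It did so for 7 of 17 on KIKO activation, 5 of 20 between activated genotypes, 0 of 10 between naive genotypes and 0 of 6 for the difference. The causes were not tested. FPKM give no read numbers, so small shares and starts at 0 cannot be separated from low depth.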
